A study of Mus musculus with 2 samples.

Results

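The transcripts of 10 heat shock proteins and chaperones were examined in Tregs from spleen and lung of Bleomycin (BLM)-administered mice. The members were taken by symbol, and all 10 were found among the 24346 symbols listed in both libraries. They are Hspa1a, Hspa1b, Hspa2 and Hspa8 of the HSP70 family, Hsp90aa1 and Hsp90ab1 of the HSP90 family, the cochaperones Dnajb1 and Hsph1, and the mitochondrial chaperonin genes Hspd1 and Hspe1. GFP+CD4+ cells were sorted on day 15 from FDG mice (genotype Foxp3-DTR-GFP), in which the endogenous Foxp3 locus drives GFP and the receptor for diphtheria toxin. Mice of 10 to 16 weeks had received 50 μg of BLM into the trachea, and each tissue gave 1 library, made from pooled cells of 3 mice. Both libraries thus share the allele and the treatment, and no library of untreated mice was analysed here. The values are FPKM, fragment counts divided by transcript length and by a factor for the size of the library. They allow levels to be compared between genes of different length. How the factor was set is not stated in the sources used here.

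Chaperones help other proteins to fold and keep damaged proteins from clumping. HSP70 proteins bind and release unfolded stretches in a cycle driven by ATP. In this cycle J-domain proteins such as Dnajb1 deliver the client and nucleotide exchange factors such as Hsph1 set it free, and HSP90 acts later on nearly folded clients such as kinases and steroid receptors. Hspa8 and Hsp90ab1 are the constitutive cytosolic forms. Hspa1a, Hspa1b, Hsp90aa1, Dnajb1 and Hsph1 are classical heat shock genes that the transcription factor HSF1 induces in stressed cells, and activation of T cells is also known to raise several chaperones. Hspa2 is best known from the testis.

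HSF1 binds heat shock elements, which are inverted repeats of the unit GAA. RefSeq start sites on GRCm38.p6 were available for 7 of the 10 genes, and 250 bases before each start were searched on both strands. The genes without an entry were Hspa8, Hsp90aa1 and Hsp90ab1. A pair of units (GAANNTTC or TTCNNGAA, which may overlap each other in longer repeats) occurred upstream of 12.8% of all 32851 start sites. At least 3 units (GAANNTTCNNGAA or TTCNNGAANNTTC, which contain the pairs) occurred in 0.466%. Hspa1a and Hspa1b are shown because they had the largest ratios between the libraries and because their upstream sequences are almost the same. The stretches cover the last 180 bases before the start, at chr17:34972157-34972336 and chr17:34959239-34959418 on the minus strand. Capitals mark the pair of units 104 bases before the start and, closer to it, ATTGG, the CCAAT box read from the other strand, which 33.8% of all start sites had in either orientation.
Hspa1a: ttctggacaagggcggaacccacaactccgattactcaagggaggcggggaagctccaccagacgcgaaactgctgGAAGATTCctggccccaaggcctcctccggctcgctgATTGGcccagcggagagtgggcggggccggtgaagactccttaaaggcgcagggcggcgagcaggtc
Hspa1b: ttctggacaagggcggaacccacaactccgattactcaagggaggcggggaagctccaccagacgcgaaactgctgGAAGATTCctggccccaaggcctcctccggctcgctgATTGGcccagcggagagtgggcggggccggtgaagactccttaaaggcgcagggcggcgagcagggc
Over the whole 250 bases the 2 genes were identical at 247 positions (98.8%), and the changes from Hspa1a to Hspa1b were C44T, T47C and T249G, counted from 1 at the 5′ end of the 250 bases. Their gene bodies lie 9951 bases apart.

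Elements of 2 other members are shown for comparison, in 30 bases each and again with the units in capitals. The Hspe1 stretch lies at chr1:55088053-55088082 on the plus strand and the Hsph1 stretch at chr5:149636351-149636380 on the minus strand.
Hspe1: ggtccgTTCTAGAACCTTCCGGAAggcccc
Hsph1: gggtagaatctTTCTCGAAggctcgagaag
Hspe1 was the member with a run of more than 2 units, and the same run lies 144 bases upstream of an alternative start of Hspd1, its neighbour on the opposite strand. Hsph1 had its pair 33 bases before the start. No pair of heat shock element units was found in the windows of Hspa2, Dnajb1 and the outer start of Hspd1, which says only that these letters were not in those 250 bases.

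**Figure D1:**
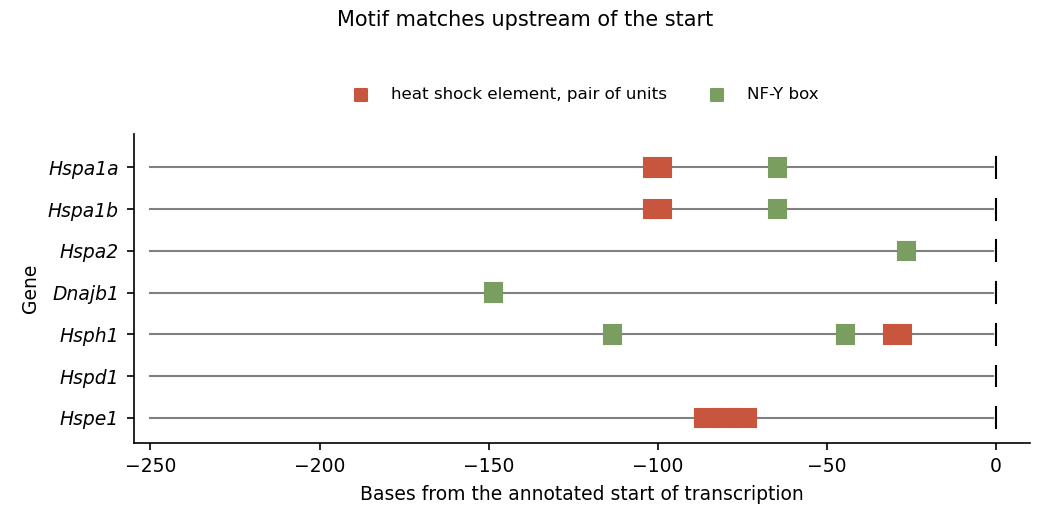
Motif matches in the 250 bases upstream of the annotated start of 7 members, with distance from the start in bases on the x axis and 1 gene per line. Red boxes are pairs of heat shock element units, merged into 1 wide box in Hspe1, and green boxes are CCAAT boxes, bound by the factor NF-Y; Hspa1a and Hspa1b have the same arrangement.

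The inducible HSP70 genes were the members that differed most between the tissues. Hspa1a (ENSMUSG00000091971.3, chr17:34969190-34972156 of GRCm38, minus strand) was at 7.11 FPKM in the splenic and 117 FPKM in the lung library, a 16.5-fold higher level in lung. Its neighbour Hspa1b (ENSMUSG00000090877.3, chr17:34956436-34959238, minus strand) was at 22.9 FPKM in spleen and 220 FPKM in lung, 9.61-fold higher. In spleen they ranked 7477 and 4016 by FPKM among all symbols, and in lung 1033 and 559. With 1 library per tissue there is no spread between mice to set these differences against, and no p-value is given for any result. In such pooled cells, a larger share of cells that express a gene and more RNA per cell cannot be told apart.

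Reads of the 2 genes are hard to separate. Among the 75-base stretches of the Hspa1a transcript, as long as 1 read, 52.7% also occur in Hspa1b, and 55.8% of those of Hspa1b occur in Hspa1a. How reads that fit both were assigned is not stated in the sources used here. The listed Hspa1b level was 3.23 times that of Hspa1a in spleen and 1.88 times in lung, and this split is uncertain. The sum of the 2 genes is less affected, and it came to 30.1 FPKM in spleen against 338 FPKM in lung, 11.2-fold higher. About 821 and 10543 reads stood behind these sums, by an estimate from transcript lengths. The exact 95% binomial interval of the ratio was 10.5 to 12.2, and like all intervals here it covers counting error only. All these intervals may be too narrow even for that, since reads are estimated and PCR copies are counted as separate reads. In addition, the annotated gene Gm20481 overlaps Hspa1a on the opposite strand over 2225 bases, and the counting is not stated to have used strand.

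Hspa2 (chr12:76404176-76406938, plus strand) was the weakest member in both tissues, with 1.71 FPKM in spleen against 8.56 FPKM in lung. Its 5.01-fold higher level in lung rested on about 41 and 234 reads, with an interval of 3.60 to 7.19. None of its 75-base stretches occurs in another annotated transcript. Its RefSeq start, used for the upstream search, lies 194 bases from the GENCODE start.

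Hspa8 (chr9:40800984-40810087, plus strand), the constitutive HSP70 gene, was the most abundant member in both libraries. It was at 1435 FPKM in spleen and 1924 FPKM in lung, ranking 41 and 56 among all symbols. The ratio was 1.34, with a counting interval of 1.32 to 1.36. The ratio lost its direction when both libraries were rescaled to the same FPKM sum (TPM), where the log2 ratio was -0.0093. Of its 75-base stretches, 66.5% also occur in other annotated genes, none of which has a row of its own in the libraries.

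The make-up of the HSP70 transcripts therefore differed, a comparison within each library that does not depend on the scaling between them. Hspa1a and Hspa1b held 2.05% of the summed FPKM of the 4 HSP70 genes in spleen and 14.9% in lung. Hspa8 held 97.8% and 84.7%, and Hspa2 0.116% and 0.377%. For each unit of Hspa1a and Hspa1b together there were 47.7 units of Hspa8 in spleen and 5.69 in lung.

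**Figure D2:**
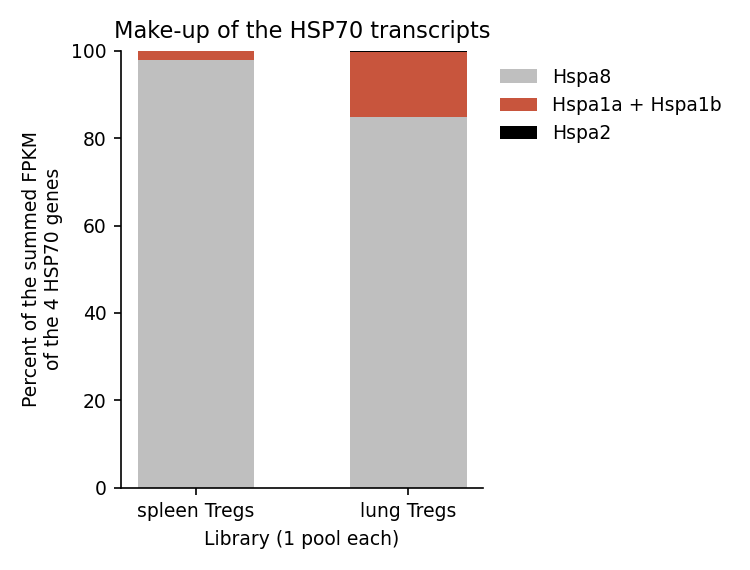
Percent of the summed FPKM of Hspa1a, Hspa1b, Hspa2 and Hspa8 on the y axis, as stacked bars for the 1 splenic and the 1 lung library. Hspa8 fills most of both bars, and Hspa1a with Hspa1b takes 2.05% in spleen and 14.9% in lung; Hspa2 is too small to be seen well.

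The HSP90 genes were nearly level between the tissues. Hsp90aa1 (chr12:110690605-110702728, minus strand), the inducible form, was at 123 FPKM in spleen and 130 FPKM in lung, the lowest ratio of all members at 1.06. Hsp90ab1 (chr17:45567775-45573271, minus strand), the constitutive form, was at 647 FPKM and 734 FPKM, a ratio of 1.13. Both were lower in lung after the TPM rescaling. The constitutive gene stood 5.27 times above the inducible gene in spleen and 5.65 times in lung. The inducible members of the HSP70 and HSP90 families thus had ratios of different size, 11.2 for the sum of Hspa1a and Hspa1b and 1.06 for Hsp90aa1. For Hsp90aa1, 53.1% of the 75-base stretches occur in other annotated genes, most of them in Gm12346, and for Hsp90ab1 0.736%.

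Dnajb1 (chr8:83608193-83612653, plus strand), the J-domain partner of cytosolic HSP70, was at 81.2 FPKM in spleen and 126 FPKM in lung. Its ratio of 1.55, with a counting interval of 1.48 to 1.64, was the largest after those of Hspa1a, Hspa1b and Hspa2. Hsph1 (chr5:149614287-149636376, minus strand), the exchange factor also called HSP110, was at 25.6 FPKM and 32.6 FPKM, a ratio of 1.27 that turned below 1 under TPM. Neither gene shares a 75-base stretch with another annotated transcript. Set against Hspa8, the client-bearing partner, both cochaperones kept similar proportions, with 17.7 units of Hspa8 for each unit of Dnajb1 in spleen and 15.2 in lung, and 56.1 and 59.0 units for each unit of Hsph1.

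Hspd1 and Hspe1 encode HSP60 and HSP10, which form the folding chamber of mitochondria and its lid. Hspd1 (chr1:55077835-55088243, minus strand) was at 65.2 FPKM in spleen and 78.7 FPKM in lung, a ratio of 1.21 that also turned below 1 under TPM. Hspe1 (chr1:55088132-55091307, plus strand) was at 111 FPKM and 170 FPKM, a ratio of 1.53. The genes overlap by 112 bases at their heads, where reads cannot be assigned without strand. Hspe1 exceeded Hspd1 1.70 times in spleen and 2.16 times in lung. Pseudogenes share part of their sequence, since 33.7% of the 75-base stretches of Hspd1 and 29.1% of those of Hspe1 occur in other annotated genes.

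**Figure D3:**
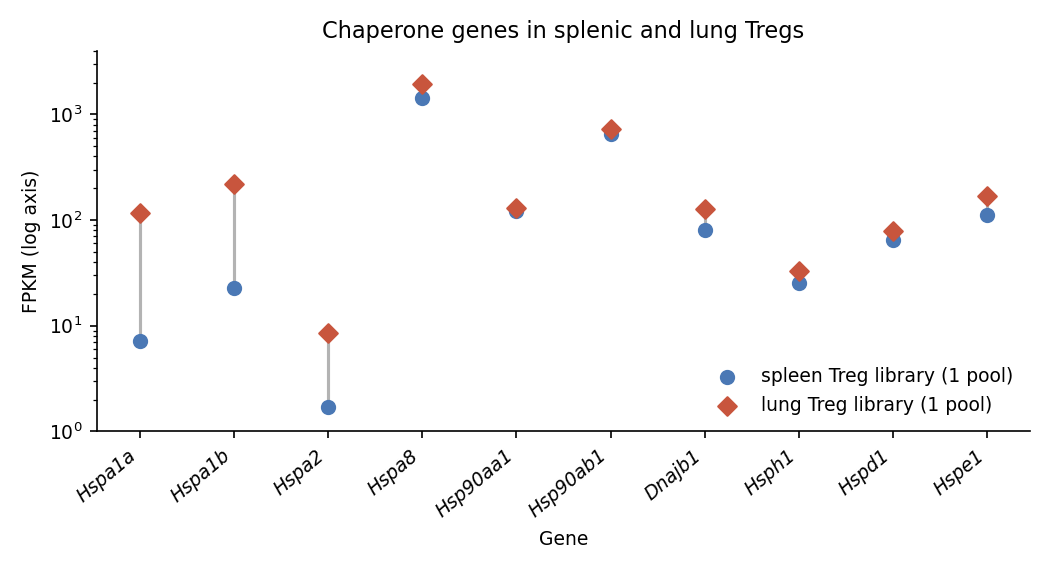
FPKM of the 10 chaperone genes on a log axis, with circles for the splenic and diamonds for the lung library, 1 pool of 3 mice each, and a line joining both values of a gene. The lines are long for Hspa1a, Hspa1b and Hspa2 and short for the other 7 genes, and Hspa8 lies highest in both tissues.

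By level, the order in spleen was Hspa8, Hsp90ab1, Hsp90aa1, Hspe1, Dnajb1, Hspd1, Hsph1, Hspa1b, Hspa1a and Hspa2. In lung, Hspa1b moved up to the third place behind Hsp90ab1, and Hspa1a came to lie between Dnajb1 and Hspd1. Which neighbours in these orders would change places between mice is not known without replicates. All 10 members together gave a sum of 2520 FPKM in spleen against 3541 FPKM in lung, which was 0.420% and 0.438% of each library's FPKM sum.

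To read these ratios against the other genes, FPKM under 0.1 were set to 0.1 and the 11421 symbols with a mean of at least 1 FPKM over both libraries were used. All 10 members passed this filter and were above 1 FPKM in both libraries. Hspa1a, Hspa1b and Hspa2 were over 2-fold higher in lung, 3 of 10 members, against 16.05% of all genes. None was over 2-fold lower, against 13.7% of all genes, and 7 lay within 2-fold, against 70.3%. None exceeded the 20-fold threshold of the study, which 3.46% of all genes did, and 2.49% were lower by as much. Hspa1a ranked 424 by ratio among the 11421 genes, Hspa1b 557 and Hspa2 835, whereas 47.7% of all genes had a higher ratio than Hsp90aa1. Ratios spread more widely among genes of low level. At a mean of 1 to 10 FPKM the 5th and 95th percentiles of the log2 ratio were -4.21 and 4.52, and Hspa2 (2.32) lay between them. Hspa1a (4.04) lay above the 95th percentile at 10 to 100 FPKM (1.47), and Hspa1b (3.26) above that at 100 FPKM or more (2.53). The shares of members and of all genes were not tested against each other.

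The median log2 ratio of lung to spleen was 0.52 over the members and 0.028 over all 11421 genes. All 10 members had a higher value in lung, as did 51.5% of all genes. Rescaling to equal FPKM sums shifted the median of all genes by -0.43 and left 5 members higher in lung, namely Hspa1a, Hspa1b, Hspa2, Dnajb1 and Hspe1. The same rescaling changed the genes over 2-fold higher and lower in lung from 1833 and 1561 to 1298 and 2809. All 10 members lay above the median of all genes, which a rescaling of a whole library cannot change. Among all genes with a mean of at least 100 FPKM, 75.1% were higher in lung and the median log2 ratio was 0.36. Of the 6 members at that level, Hsp90aa1 (0.080) and Hsp90ab1 (0.18) lay below this median and the others above it.

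**Figure D4:**
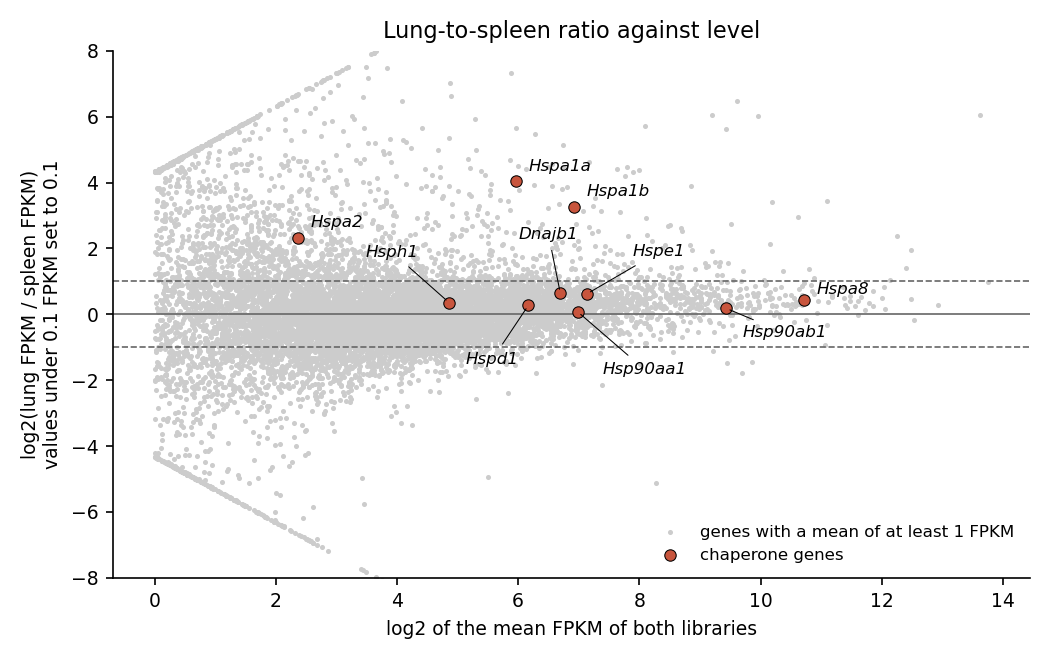
The log2 ratio of lung to splenic FPKM on the y axis against the log2 of the mean FPKM on the x axis, for the 11421 genes with a mean of at least 1 FPKM (grey) and the 10 chaperone genes (red); dashed lines mark 2-fold, and 90 genes lie beyond the axis. Hspa1a, Hspa1b and Hspa2 lie above the upper line, and the other 7 members lie between the lines. Ratios spread more widely at low levels, and Hspa2 lies within the spread of genes of its level.

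By log2 FPKM of the 2 libraries, the genes nearest to Hspa1a among the others tested were Gstm1 (6.31 FPKM in spleen and 134 FPKM in lung), Wfdc21 (8.81 and 120 FPKM) and Ctsl (5.42 and 123 FPKM). Nearest to Hsp90aa1 were Slirp, Fam173a and Nxf1, at distances of 0.044, 0.067 and 0.070 on the log2 scale. Such likeness rests on 2 libraries and many genes share it.

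Of the heat shock factors and their binding protein, Hsf1, Hsf2 and Hsbp1 passed the filter, and all 3 lay within 2-fold. Hsf1, the main heat shock factor, was at 46.6 FPKM in spleen and 41.8 FPKM in lung. Hsf2 was at 2.44 and 2.50 FPKM. Hsbp1, a binding protein that restrains HSF1, was at 119 and 167 FPKM. Hsf4 was at 0.203 and 0.179 FPKM, or about 3 reads each, Hsf5 was at 0 and 0.258 FPKM, or about 12 reads in lung, and Hsf3 was listed at 0 in both. The activity of HSF1 is set largely at the protein level, which these data do not measure.

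Of 23 other HSF1 target genes tested, 3 were over 2-fold higher and 2 over 2-fold lower in lung, against 16.05% and 13.7% of all genes. The higher genes were Cryab and Hspb1, small heat shock proteins that hold unfolded proteins, and Serpinh1, a chaperone of collagen in the ER. Cryab was at 0.145 FPKM in spleen against 7.17 FPKM in lung, and Serpinh1 at 0.0954 and 2.61 FPKM, so that about 1.16 and 1.96 splenic reads stood behind them and no fold is given. Both passed the filter only through the lung library, so that they had to be higher there. Hspb1 was at 2.08 and 9.90 FPKM, 4.76-fold higher, on only about 15 reads in spleen and 81 in lung. The lower genes were Chordc1, an HSP90 cochaperone, at 60.4 and 21.3 FPKM, and Dnaja4, a J-domain protein, at 13.0 and 5.16 FPKM. Of 10 genes listed as small heat shock proteins, 5 passed the filter, and Cryab and Hspb9 (0.559 and 3.28 FPKM) did so only through lung. Of the other 3, Hspb1 and Hspb11 (14.0 and 38.0 FPKM) were over 2-fold higher, and Hspb6 was at 1.99 and 1.60 FPKM. Hspb2, Hspb3, Hspb8 and Cryaa were listed at 0 in both libraries.

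The larger chaperone systems are given by the same counts, to be read against the 16.05% of all genes over 2-fold higher and the 13.7% over 2-fold lower in lung. Of 7 tested HSP70 family genes outside the members, none was over 2-fold higher and Hspa14 was over 2-fold lower (61.2 and 30.3 FPKM), with a median log2 ratio of -0.52. Next to it, Hspa13 was at 4.25 and 2.33 FPKM, while Hspa5, the HSP70 of the ER, was at 453 and 392 FPKM and Hspa4l at 8.78 and 10.5 FPKM. Of 39 J-domain genes other than Dnajb1, 2 were over 2-fold higher, Dnajc12 (3.68 and 23.0 FPKM) and Dnajc17 (7.96 and 15.9 FPKM), and 7 were over 2-fold lower. Dnaja3, a mitochondrial J-domain protein, was at 30.1 and 7.08 FPKM, and Dnajc11 at 20.4 and 5.59 FPKM. Of 12 nucleotide exchange factors other than Hsph1, none was over 2-fold higher, and Bag5 (27.0 and 12.2 FPKM) was over 2-fold lower. Bag1 (108 and 168 FPKM) and Sil1 (19.8 and 31.5 FPKM) had the highest ratios and Bag4 (7.36 and 4.48 FPKM) the next lowest.

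Of 23 HSP90 family genes and cochaperones outside the members, none was over 2-fold higher, Chordc1 and Ttc4 (29.9 and 13.3 FPKM) were over 2-fold lower, and the median log2 ratio was 0.17. Hsp90b1, the HSP90 of the ER, was at 152 and 238 FPKM and Ahsa2 at 17.1 and 26.7 FPKM. Of 16 other mitochondrial chaperones and proteases, Dnaja3 was past 2-fold, and Dnajc19 (77.6 and 140 FPKM), Hscb (20.4 and 35.8 FPKM) and Clpb (7.45 and 4.66 FPKM) were within it. All 14 tested subunits of TRiC, the cytosolic chaperonin, and of its partner prefoldin lay within 2-fold, from Vbp1 (79.7 and 67.5 FPKM) and Cct6a (141 and 130 FPKM) to Pfdn5 (271 and 425 FPKM) and Pfdn1 (42.9 and 77.1 FPKM). Of 17 ER chaperones, Dnajb9 (39.5 and 18.4 FPKM) was over 2-fold lower and the other 16 lay within 2-fold, among them Dnajc10 (21.4 and 13.0 FPKM), Sdf2l1 (29.2 and 50.8 FPKM) and Pdia6 (91.1 and 160 FPKM).

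**Figure D5:**
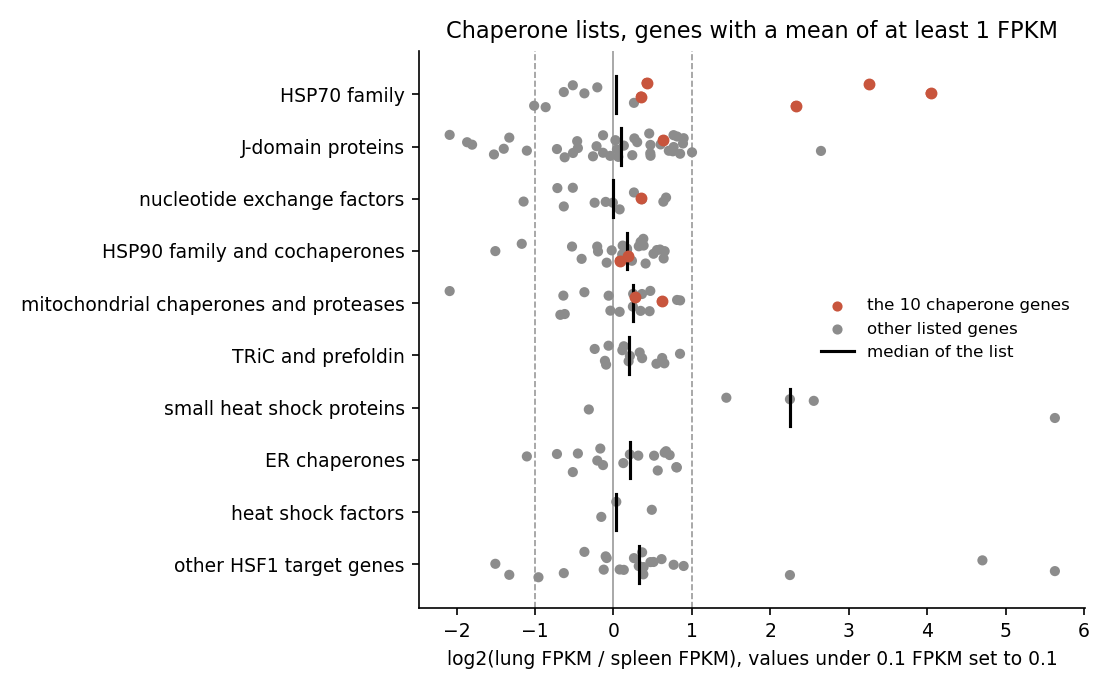
The log2 ratio of lung to splenic FPKM on the x axis for the genes of 10 chaperone lists with a mean of at least 1 FPKM, with the 10 members in red, other genes in grey, the median of each list as a black bar and dashed lines at 2-fold; height within a list has no meaning and a gene may be in several lists. Most genes lie between the dashed lines, with Hspa1a, Hspa1b and Hspa2 apart from their family. To the right lie 4 genes of the small heat shock protein list, of which 2 passed the filter only through lung.

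The samples also differed in preparation and in other transcripts. Lung was minced, digested with Liberase TM and DNase I for 1 h at 37 °C and dissociated by machine, and the preparation of spleen is not described in the sources used here, so that tissue and preparation cannot be told apart. Many immediate early genes respond within minutes to activation and to cell dissociation. Of 18 genes listed for the immediate early or dissociation response, 4 were over 2-fold higher in lung, against 16.05% of all genes. They were Ier3 (2.41 and 45.1 FPKM), Atf3 (5.67 and 87.7 FPKM), Nr4a1 (96.2 and 213 FPKM) and Socs3 (39.2 and 81.7 FPKM). Egr1 was over 2-fold lower (82.5 and 28.8 FPKM), Klf2 was at 296 and 170 FPKM, and Fos and Jun, named after their values were seen, were at 411 and 316 FPKM and at 132 and 82.6 FPKM. Of all 18, 10 were higher and 8 lower in lung. Their part in the values of Hspa1a and Hspa1b was not tested.

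The sort was reflected in Foxp3 (18.7 FPKM in spleen and 41.8 FPKM in lung), Cd4 (195 and 179 FPKM) and Cd3e (513 and 369 FPKM), while Il2ra, which encodes CD25 and was named after its values were seen, was at 89.4 and 59.1 FPKM. Markers of other cells were present too. All 12 macrophage markers were higher in lung, and their summed level came to 788 FPKM in the splenic and 27737 FPKM in the lung library. Lyz2 made up most of the sum in lung (376 and 24947 FPKM). Of the 12, 9 were over 2-fold higher, against 16.05% of all genes. Adgre1 (14.6 and 24.3 FPKM), Csf1r (43.8 and 50.1 FPKM) and Mrc1 (7.64 and 9.41 FPKM), named after their values were seen, were within 2-fold. Sums of 7 neutrophil markers were 451 and 1214 FPKM (S100a8 highest in lung, Camp at 0 there), of 8 lung epithelial markers 11.0 and 3144 FPKM (Scgb1a1 highest in lung, Sftpc, Sftpb and Scgb3a2 at 0 in spleen), and of 8 fibroblast markers 1.15 and 196.9 FPKM (Mgp highest in lung, 4 markers at 0 in spleen). Scgb1a1 made up most of the epithelial sum in lung (1.48 FPKM in spleen and 3021 FPKM in lung). Epcam, named after its values were seen, made up most of that in spleen and was lower in lung (8.75 and 1.79 FPKM). The other listed epithelial markers were higher in lung. Of 8 endothelial markers, led by Pecam1, the sums were 55.5 and 48.9 FPKM with 3 and 2 markers at 0. Pecam1 made up most of these sums (54.8 and 31.7 FPKM), whereas Cldn5 (0.160 and 6.54 FPKM), Egfl7 (0.101 and 8.04 FPKM) and Vwf (0.425 and 2.03 FPKM), named after their values were seen, were higher in lung. B cell markers, led by Cd79b, summed to 265 and 133 FPKM, and exocrine pancreas markers, led by Cela1 in lung, to 170 and 3.25 FPKM with 1 and 5 of 8 at 0. Chaperones are expressed in all of these cells, and their part in the values of the 10 members was not tested.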

How the data were processed

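RNA of GFP+CD4+ cells was amplified with SMART-Seq HT, and single-end reads of 75 bases were taken. Per the submitters' processing notes, the authors mapped these to mm10 with TopHat2 2.1.1, Bowtie2 2.2.8 and SAMtools 0.1.18 and deposited FPKM calculated with Cuffdiff 2.2.1. The annotation, the handling of reads that fit several genes and any scaling between libraries are not given in the sources used here.

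The members and gene lists were chosen with earlier results of these data known. Genes were named by a rule: the members, heat shock factors, the 2 highest and 2 lowest ratios of each chaperone list and of the immediate early list, Foxp3, Cd4 and Cd3e, the marker highest in lung of each other cell type, and the 3 nearest patterns of the members with the highest and lowest ratio. Genes making up a count of 5 or fewer, such as Nr4a1, Socs3 and Hspb1, and a few others were named after their values were seen. With 1 library per tissue no test was made. FPKM under 0.1 were set to 0.1 before ratios.

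Reads were estimated from FPKM and effective lengths of GENCODE M21 transcripts (GRCm38) tied to RefSeq (fragments of 200 ± 80 bases). What 1 read is worth was read off the commonest product of FPKM and length among genes with a single transcript length of at least 1500 bases. Among these same genes, those with 1 to 10 estimated reads lay within 0.1 of a whole number for 74.6% (spleen) and 76.9% (lung). The genes that set the value are among them, and shorter genes such as Hspe1 were not covered. Estimated reads summed to 9646736 and 12630865 over 22541 genes. Shared sequence was counted as exact 75-base matches, either strand, in all GENCODE M21 transcripts. The value of 1 read and the 2-fold calls were tested on simulated data. These had 1 length per gene, and the calls were checked only for genes well above the filter. The motif search and the count of shared sequence were not tested in this way. The tools were scipy 1.17.1, pandas 2.3.3, numpy 2.4.6 and matplotlib 3.10.9 under Python 3.11.15.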

Additional observations from a re-analysis of the deposited data

How the results depend on the processing

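Setting the floor to 0.01 or 1 FPKM, adding 0.1 or 1 FPKM to each value, or rescaling by the upper quartile or by the median ratio left all 10 members higher in lung and 3 of them over 2-fold. Rescaling to equal FPKM sums (TPM) turned the log2 ratio to -0.0093 for Hspa8, -0.081 for Hsph1, -0.16 for Hspd1, -0.25 for Hsp90ab1 and -0.35 for Hsp90aa1, lowered the median of the members to 0.088 and the ratio of summed Hspa1a and Hspa1b to 8.33, and changed the genes over 2-fold higher from 1833 to 1298 and those lower from 1561 to 2809. At 1.5-fold, 5 members were higher, and of all genes 2979 were higher and 2746 lower. At 4-fold, 957 genes were higher and 575 lower, and at 20-fold 0 members were higher, with 395 of all genes higher and 284 lower. With no filter 2678 genes were over 2-fold higher and 2850 lower, and with a mean of at least 10 FPKM 656 were higher and 453 lower. No paired analysis was possible because each tissue has 1 library, and for the same reason no replicate could be left out. Depth limits Hspa2 most among the members, with about 41 reads in spleen. The split of reads between Hspa1a and Hspa1b and the spread between mice are not known.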
